A study of Mus musculus with 4 samples.

Results

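Accessibility at 9 reference genes (Actb, Actg1, Gapdh, Tbp, Ppia, B2m, Eef1a1, Ywhaz and Sdha) was examined in ATAC-seq peak lists of mouse embryoid bodies. Actb was chosen by its gain in rank by −log10 p in the K20R lists and the others as its companions among reference genes, so the Actb values are a description without a test. For each gene, the peaks with a summit within 1 kb of an annotated transcription start site (TSS) were taken in every list, and the strongest was used. They were compared with 21840 protein-coding genes, of which 13935 had such a peak in all 4 lists. Of the 9 reference genes, 7 had one in all 4 lists. Summits of Actg1 lay in the window in 2 lists and those of Ywhaz in none, but all 9 genes had a peak that touched the window in every list.

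In ATAC-seq a transposase inserts adapters wherever chromatin is open. Embryoid bodies are aggregates in which embryonic stem cells differentiate, and here they were made by hanging drop in serum without LIF from E14Tg2A mouse embryonic stem cells that had been kept on inactivated mouse embryo fibroblasts with serum, LIF and 2i. On day 4, 2 WT libraries were compared with 2 CTCF-K20R libraries, whose cells carry arginine in place of lysine 20 of the insulator protein CTCF after CRISPR/Cas9 editing, and how many edited clones they stand for is not given in the sources used here. There were 59783 and 66703 peaks for WT, and for K20R 51823 and 55832. The median pileup (reads over the summit) of promoter peaks was 74 and 110 in WT against 80 and 125 in K20R, with taller peaks in the second library of either genotype. Of 5 pluripotency markers, 5 and 5 had a promoter peak in WT against 4 and 5 in K20R. Among 5 early mesoderm markers the number was 4 in every list, and among 5 fibroblast markers it was 4 and 5 in WT against 5 and 5 in K20R. An open promoter does not show expression, and the part of other cell types in the results was not tested.

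Reference genes are used to scale RNA and protein measurements because nearly every cell needs their products. Their promoters are usually kept open, often as CpG-rich stretches free of nucleosomes. Actb and Actg1 encode the cytoplasmic actins, which polymerise into filaments, and their transcription is known to be driven through CArG boxes, the sites of serum response factor (SRF). Gapdh is a glycolytic enzyme, Sdha a subunit of succinate dehydrogenase, Ppia a cyclophilin, Eef1a1 the factor that brings aminoacyl-tRNA to the ribosome, Ywhaz a 14-3-3 protein, B2m the light chain of MHC class I and Tbp the TATA-binding protein of the general transcription machinery.

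The sequence under the strongest Actb summit of the K20R lists is shown first, as a description. It lies in the first intron of Actb (chr5:142903115-142906754, minus strand, mm10), with capitals for exact matches to a GC box (GGGCGG), an ETS site (CCGGAAG) and a CArG box, and for a match to the CTCF consensus with 1 mismatch, all searched on both strands. The stretch is chr5:142905778-142906077, read on the strand of the gene, and its end was set so as to hold the CTCF match.
Actb first intron: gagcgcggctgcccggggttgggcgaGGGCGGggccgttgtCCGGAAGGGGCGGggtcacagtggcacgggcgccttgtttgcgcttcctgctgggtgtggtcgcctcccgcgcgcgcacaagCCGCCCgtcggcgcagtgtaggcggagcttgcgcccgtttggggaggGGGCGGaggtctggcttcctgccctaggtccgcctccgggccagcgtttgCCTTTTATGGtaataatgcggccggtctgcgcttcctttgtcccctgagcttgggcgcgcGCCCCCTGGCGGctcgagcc
The CArG box lay 897 to 906 bp downstream of the TSS, 80 bp from the summit of K20R replicate 1. The match to the CTCF consensus lay 957 to 968 bp downstream, 140 bp from that summit, on the opposite strand, and differed from the consensus by A3G, counted from the 5′ end of the consensus. Within 160 bp of the summit, the window of Actb had a GC content of 71.3% and 38 CpGs, against medians of 65.1% and 26 over the 13340 distinct promoter summits of the same list. A CArG box was in 1.03% of these windows, and Actb, Actg1 and Gapdh each held 1 while the other 5 reference genes with a summit in this list held none. The CTCF consensus with up to 1 mismatch was in 7.89% of the windows and, among the reference genes, in that of Actb. A match describes letters and is no evidence of binding.

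RefSeq promoters (GRCm38.p6) were listed for 7 of the 9 genes, all but Actb and Ywhaz. Those of Actg1 (the other cytoplasmic actin), Tbp (the other gene with higher values in both K20R libraries) and B2m (whose percentiles overlapped between genotypes) are shown up to the base before the most upstream start, without stretches that are an exon of any gene, with capitals for matches on either strand to the TATA box in the spelling TATAAA or to a CCAAT box or the motifs above.
Actg1, chr11:120348543-120348677, minus strand: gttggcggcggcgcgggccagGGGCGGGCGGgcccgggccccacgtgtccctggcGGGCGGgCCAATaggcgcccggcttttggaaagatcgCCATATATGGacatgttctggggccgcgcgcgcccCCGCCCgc
Tbp, chr17:15499752-15499887, plus strand: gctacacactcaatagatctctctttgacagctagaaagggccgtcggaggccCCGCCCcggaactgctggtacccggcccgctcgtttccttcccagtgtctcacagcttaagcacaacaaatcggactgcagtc
B2m, chr2:122147437-122147685, plus strand: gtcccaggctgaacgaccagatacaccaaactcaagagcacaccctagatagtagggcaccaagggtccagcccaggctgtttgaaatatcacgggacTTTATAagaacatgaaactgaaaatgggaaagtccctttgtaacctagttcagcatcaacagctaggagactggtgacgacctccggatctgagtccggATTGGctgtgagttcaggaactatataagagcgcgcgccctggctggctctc
The Actg1 stretch held a CArG box 43 bp before the start, a CCAAT box and 4 GC boxes, of which a pair overlapped. That of Tbp held 1 GC box. That of B2m held a match to TATAAA 151 bp before its start on the opposite strand, and a CCAAT box 52 bp before it. Nearer the start, on the strand of the gene, the B2m stretch also held tatataag, which the spelling TATAAA does not match. Over 32851 RefSeq promoters, counted over the 250 bases before the start, 1.47% held a CArG box, 33.8% a CCAAT box, 32.7% a GC box, 12.4% a TATA box and 6.91% the ETS site.

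Actb ranked lowest of the 7 genes in WT and among them in K20R. By the −log10 p of its summit it was at percentile 44.1 and 58.1 of the WT lists and at 87.4 and 87.0 of the K20R lists, a difference of 36.1 points. Both K20R values lay above both WT values. Ranked again among the promoter peaks of the 13935 genes alone, Actb was at percentile 3.49 and 7.19 in WT against 55.6 and 52.2 in K20R. That difference of 48.6 points was exceeded by 2 of the 13935 genes, and the whole-list difference of 36.1 points by 23. The central 95% of genes lay between -22.3 and 21.1 points, and the median distance between replicates was 5.62 points in WT against 5.00 in K20R. In bulk libraries such as these, a change in the number of cells with an open site and a change in accessibility per cell cannot be told apart.

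The pileup and the local background of every summit were solved from its fold and p. At Actb the pileup was 70 reads (95% Poisson interval 54.6 to 88.4) and 102 (83.2 to 124) in WT against 138 (116 to 163) and 207 (179.8 to 237) in K20R. These intervals cover counting error only. Divided by the median of the library's promoter peaks, the pileup was 0.946 and 0.927 in WT against 1.73 and 1.66 in K20R, 1.80-fold higher in K20R (0.85 on the log2 scale). That log2 difference was exceeded by 136 of the 13935 genes. Among promoter peaks with any base in the window, the Actb pileup exceeded 45.1% and 44.5% in WT against 87.4% and 84.8% in K20R. By pileup Actb was thus near the middle in WT, and not near the bottom as by −log10 p. The background at Actb was 30.3 and 32.6 reads in WT against 26.2 and 36.1 in K20R, which overlapped. Divided by the median background of promoter peaks, it was 3.91 and 3.28 in WT against 3.03 and 3.15 in K20R. On that scale both K20R values were below both WT values, though the WT libraries lay further from each other than 3.28 from 3.15. The share of all genes with this order was not counted, so no difference in background is claimed. The background of Actb was high in every list, exceeding that of at least 98.8% of promoter peaks, and the fold enrichment over it was accordingly low, at 2.27 and 3.06 in WT against 5.11 and 5.60 in K20R.

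The interval and the summit of the Actb peak differed as well. In WT replicate 1 a single peak of 1044 bp ran from the TSS into the first intron, and in WT replicate 2 there were 2 peaks, of 267 bp at the TSS and of 398 bp in the intron. In K20R there was a single peak of 1623 bp and of 1519 bp. The strongest summit was in the first intron, 815 bp downstream of the TSS in WT replicate 1 and 817 bp downstream in both K20R lists. In WT replicate 2 it was 58 bp upstream of the TSS. The intronic peak of that list had its summit 738 bp downstream with a pileup of 85, which left it at percentile 36.1. Read at the intronic summit in all 4 lists, the pileup over the promoter median was 0.859 ± 0.122 in WT against 1.69 ± 0.0495 in K20R (SD, n = 2), a ratio of 1.97. The match to the CTCF consensus was inside the K20R peaks and outside the WT peaks, whose ends lay at chr5:142905808 and chr5:142905807 beside a match that ends at chr5:142905797. Where a peak ends depends on its height.

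**Figure D1:**
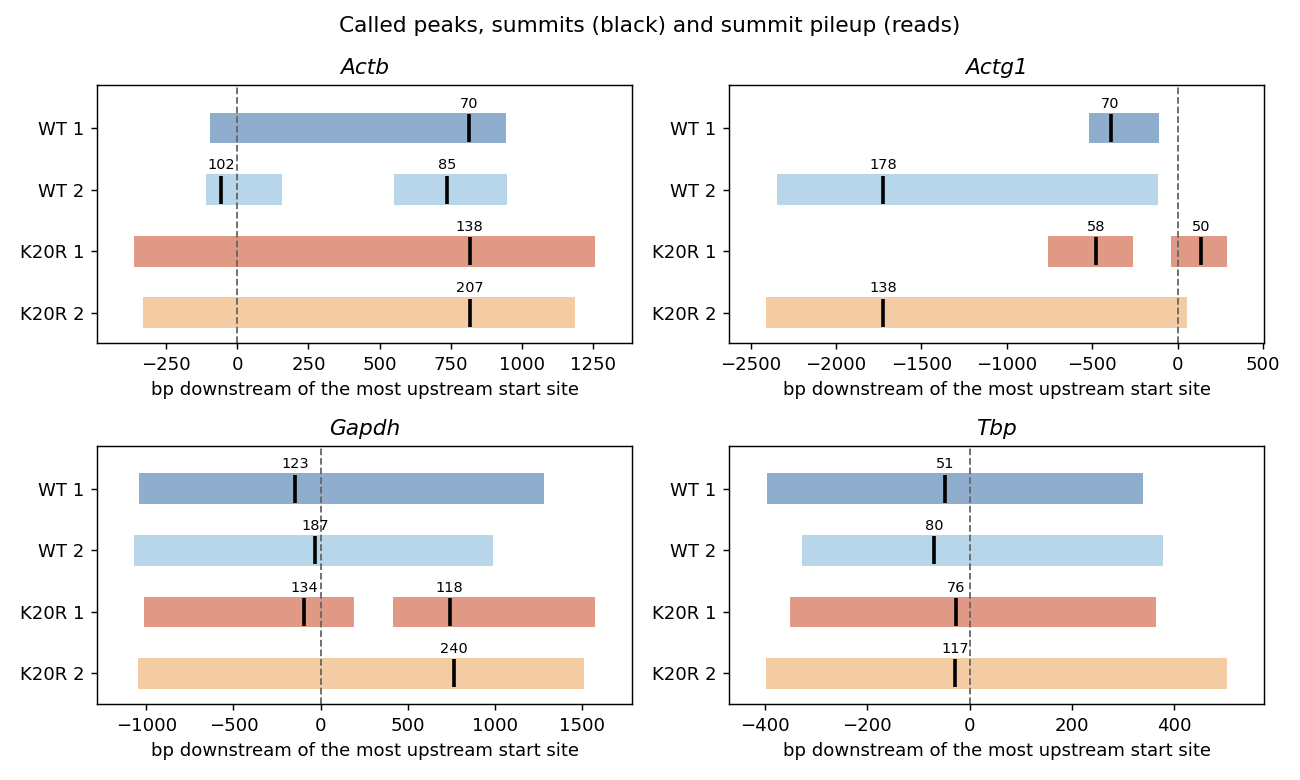
Called peaks (bars), summits (black ticks) and summit pileup in reads (numbers) at Actb, Actg1, Gapdh and Tbp in the 4 libraries, against the distance in bp from the most upstream TSS (dashed line), with peaks shown where they touch the 1 kb window. At Actb the K20R pileups of 138 and 207 sit at the same intronic position, and WT replicate 2 has separate peaks of 102 and 85.

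Most of the other reference genes overlapped between genotypes. By percentile in the whole list, both K20R values were above both WT values for 2 of 7 genes (Actb and Tbp), against 15.9% of all 13935 genes, and below them for 1 (Gapdh), against 31.8%. Among promoter peaks alone, which takes out the shift of all promoters, the counts were 2 and 0 of 7 genes against 23.8% and 23.0%. By pileup over the promoter median they were 3 (Actb, Tbp and B2m) and 0 of 7 against 25.3% and 24.7%. Admitting peaks with any base in the window brought in Actg1 and Ywhaz and gave 2 and 0 of 9 genes against 23.8% and 23.0%. The rule had used the Actb value, so its place in these counts says nothing further. Without Actb, the median difference among promoter peaks was 3.15 points over 6 genes, against 0.0861 over all genes. A comparison of 2 with 2 libraries cannot give an exact two-sided permutation p below 0.333, so no single gene could pass a threshold of 0.05.

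**Figure D2:**
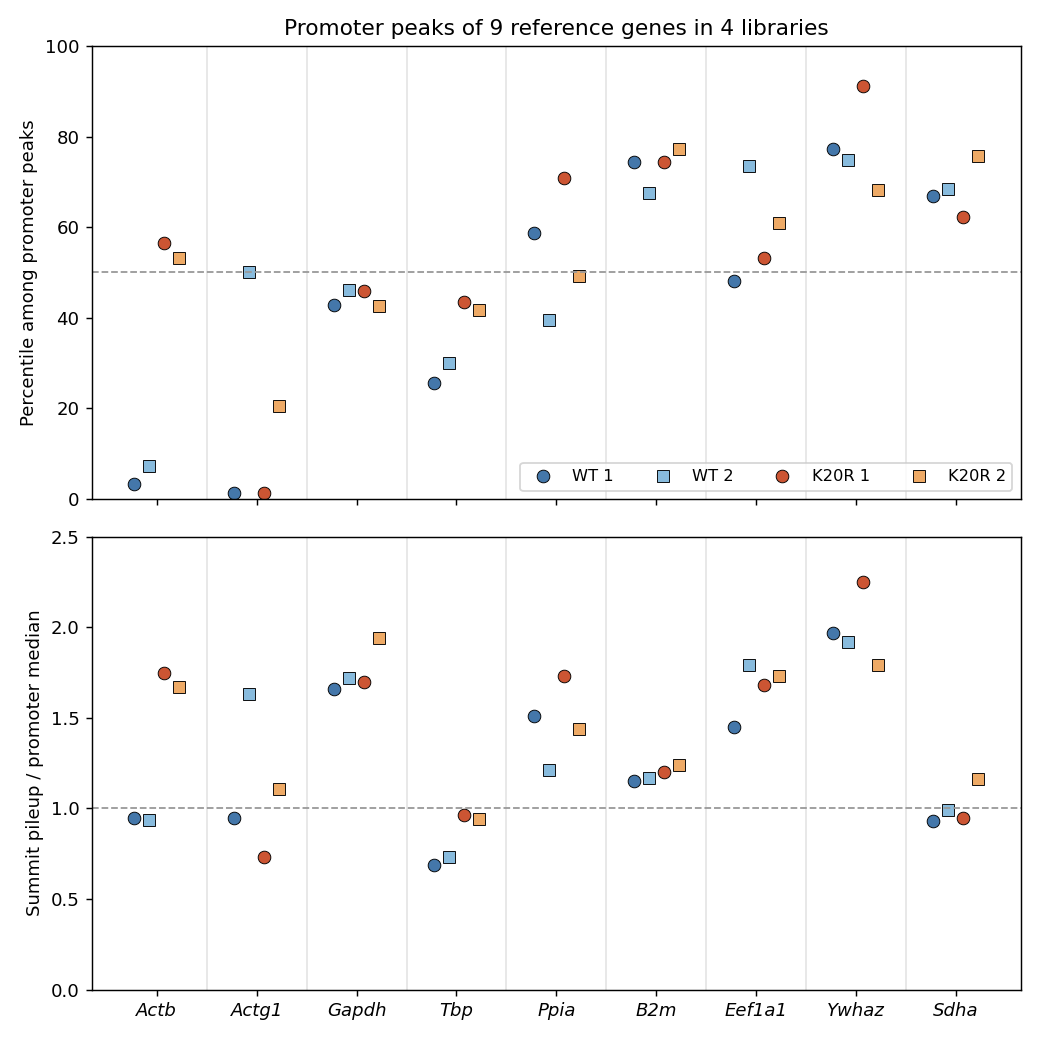
Percentile among promoter peaks (upper panel) and summit pileup divided by the promoter median of the library (lower panel) for the 9 reference genes, 1 point per library, with any base of the peak in the window. Dashed lines mark percentile 50 and a ratio of 1. Actb and Tbp are the genes whose K20R points lie above both WT points in both panels, and B2m does so in the lower panel.

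Tbp was the other gene whose K20R values were higher by both percentiles and by pileup, though not by fold enrichment. Its pileup was 51 and 80 reads in WT against 76 and 117 in K20R, which is 0.689 and 0.727 of the promoter median in WT against 0.950 and 0.936 in K20R (1.33-fold). Among promoter peaks it was at percentile 25.0 and 29.3 in WT against 42.5 and 40.9 in K20R, a difference of 14.5 points. The exact permutation p was 0.333. The Tbp peak was narrow in all lists (between 707 and 902 bp) and its summit stayed between 27 and 69 bp upstream of the TSS. Its background was nearer to that of other promoters than at Actb, at 0.841 and 0.830 of the promoter median in WT against 1.08 and 1.10 in K20R. Both K20R values were above both WT values, and the share of all genes with this order of backgrounds was not counted. The fold enrichment overlapped, at 6.90 and 8.75 in WT against 7.43 and 8.67 in K20R, and ranked by fold the difference was 0.215 points. Psmb1, a proteasome subunit gene, starts 137 bp upstream of Tbp on the opposite strand, so the peak lay over the starts of both genes. The strongest Psmb1 peak was another one in 3 lists, 1544 to 1567 bp away, and the same one in K20R replicate 1. With a window of 2 kb, another peak became the strongest in some lists and the Tbp difference by whole-list percentile was -0.917 points, from 4.76.

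Actg1, the gene closest to Actb in function, did not have a summit in the window in every list. The same peak could therefore not be compared there between genotypes. Near its TSS the WT list of replicate 1 had a peak with a pileup of 70 and the K20R list of replicate 1 peaks of 58 and 50, at percentiles from 13.3 to 27.6. In the second replicates the strongest peak touching the window was a wide one, of 2230 bp in WT against 2468 bp in K20R, whose summits lay 1726 and 1725 bp upstream of the TSS. The values by any base in the window, 1.25 and 50.0 in WT against 1.41 and 20.5 in K20R among promoter peaks, therefore compared different peaks in the first and second replicates. Its K20R minus WT difference was -14.7 points, with overlapping genotypes (exact permutation p = 1.00).

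The upstream peak itself was present in all 4 lists, outside the 1 kb window, and was read there after its values had been seen. Its summit lay between 1721 and 1726 bp upstream of the Actg1 TSS. The pileup was 124 and 178 reads in WT against 98 and 138 in K20R, or 1.68 and 1.62 times the promoter median in WT against 1.23 and 1.10 times in K20R. In the whole lists it was at percentile 85.1 and 87.5 in WT against 75.2 and 72.1 in K20R. Both K20R values were thus below both WT values, the direction opposite to that at Actb. The same held for the promoter peaks of 31.8% of all 13935 genes by whole-list percentile, and of 24.7% by pileup over the promoter median.

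Gapdh had a pileup of 123 and 187 reads in WT against 134 and 240 in K20R, or 1.66 and 1.70 times the promoter median in WT against 1.68 and 1.92 times in K20R. Its percentile in the whole list was 84.0 and 86.2 in WT against 83.4 and 83.3 in K20R, lower by 1.75 points. Among promoter peaks the genotypes overlapped, with 42.0 and 45.4 in WT against 44.8 and 41.8 in K20R. Like Actb, Gapdh lay on a high background (27.8 and 37.3 reads in WT, 29.9 and 57.7 in K20R). Its strongest peak was 2327 and 2062 bp wide in WT against 1210 and 2563 bp in K20R. The summit was upstream of the TSS by 31 to 147 bp in 3 lists, and 764 bp downstream in the first intron in K20R replicate 2. K20R replicate 1 also had a separate intronic peak with a summit 742 bp downstream and a pileup of 118. A summit in the first intron was thus called in both K20R lists and in neither WT list. The WT peaks of 2327 and 2062 bp covered these positions. In K20R replicate 1 the intronic summit was the weaker, at 118 reads against 134 upstream. The share of genes with such a pattern was not counted.

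B2m and Sdha stood on low backgrounds, of 4.04 to 9.63 reads. B2m was at percentile 93.8 and 92.6 in WT against 93.0 and 94.3 in K20R, from pileups of 85, 127, 95 and 154 reads in the same order. Relative to the promoter median these were 1.15 and 1.15 in WT against 1.19 and 1.23 in K20R, which did not overlap, at a ratio of 1.05. Sdha was at 91.8 and 92.9 in WT against 89.2 and 93.9 in K20R, and its peak had almost the same width in every list, from 1017 to 1055 bp. Its fold enrichment was the highest of the 9 genes in every list, up to 16.8, although its pileup was near the promoter median.

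Ppia, Eef1a1 and Ywhaz overlapped between genotypes. Ppia was at percentile 57.9 and 38.6 among promoter peaks in WT against 70.2 and 48.4 in K20R. Within each replicate number the K20R value was the higher, but the first K20R library exceeded WT and the second fell between the WT libraries. Eef1a1 was at 47.3 and 72.8 in WT against 52.2 and 60.1 in K20R, so that the K20R values lay between the WT values. Its peak was 1072 and 981 bp wide in WT against 1480 and 1829 bp in K20R. Ywhaz, by any base of the peak in the window, was at 77.2 and 74.8 in WT against 91.2 and 68.2 in K20R, the highest and the lowest value both coming from K20R. The Ywhaz peak began at the TSS and its summit lay 1912 to 1976 bp downstream, in the second intron, so that among intronic summits those of Ywhaz were outside the 1 kb window and those of Actb, at 738 to 817 bp, inside it.

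**Figure D3:**
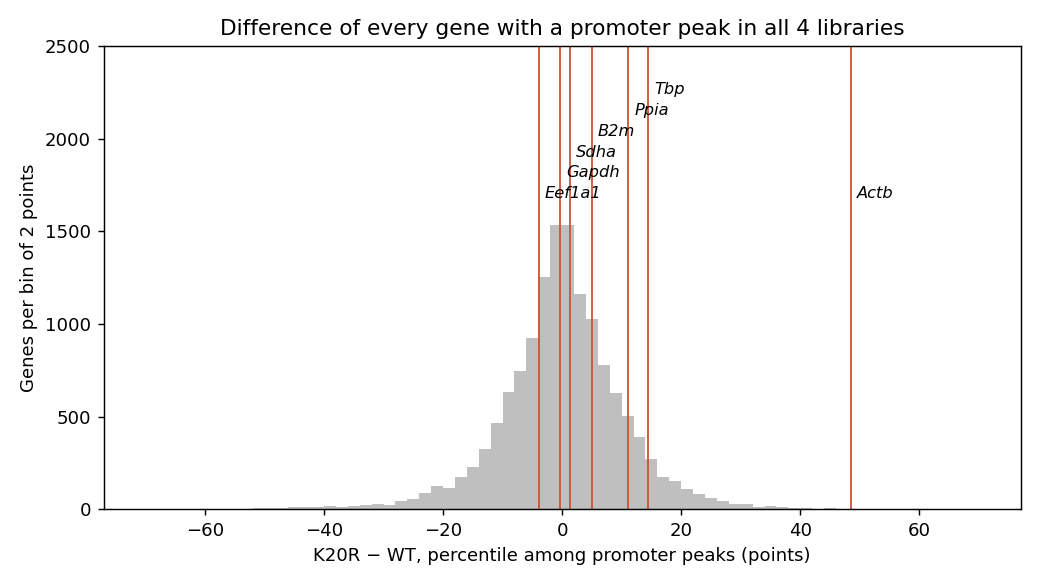
Histogram of the K20R minus WT difference in percentile among promoter peaks over 13935 genes, in bins of 2 points, with lines at the 7 reference genes that have a summit in the window in all 4 libraries. Actb is at 48.6 points, Tbp at 14.5 and Ppia at 11.1, and the other 4 lie between -3.90 and 4.94 points.

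Within 500 kb of Actb, 17 other promoters had a peak in all 4 lists, of which 2 were higher in both K20R libraries, 3 lower and 12 overlapped, against 23.8% higher and 23.0% lower among all genes. Their differences ran from -11.4 to 15.2 points with a median of 1.30. The nearest was Fbxl18, an F-box protein gene 11333 bp from the Actb start, at percentile 35.8 and 36.8 in WT against 46.1 and 47.5 in K20R. Tnrc18 on the same side was at 14.2 and 7.28 in WT against 16.1 and 10.9 in K20R. On the other side the nearest were Rnf216, 206240 bp away, at 45.1 and 30.1 against 44.7 and 41.6, and Rbak, at 47.9 and 47.8 against 59.2 and 43.4. Both of these and Tnrc18 overlapped between genotypes.

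**Figure D4:**
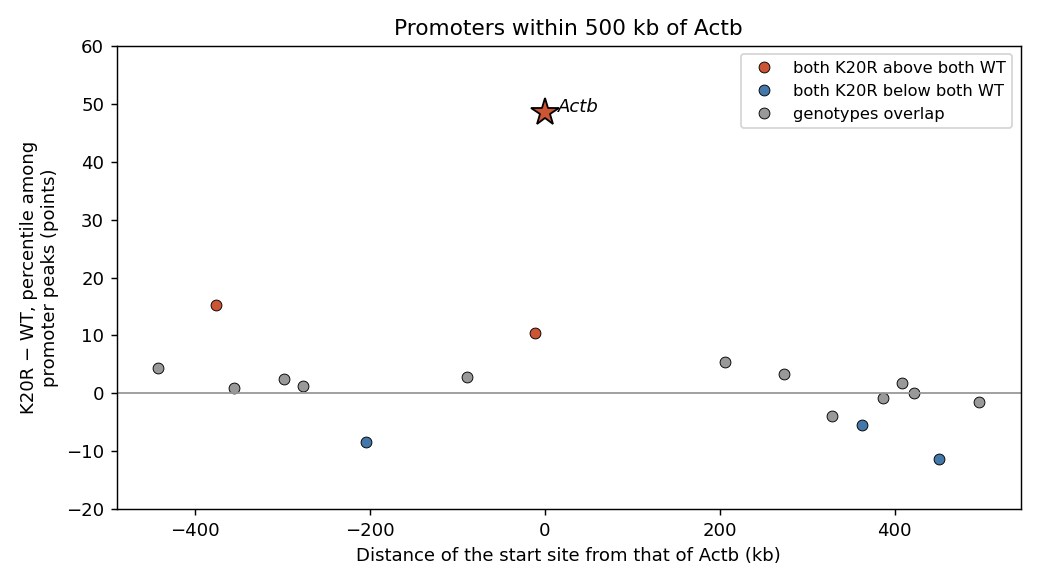
K20R minus WT difference in percentile among promoter peaks for Actb (star) and the 17 other promoters within 500 kb, against the distance of their start from that of Actb in kb. Red points were higher and blue points lower in both K20R libraries than in both WT libraries, grey points overlapped. Actb is at 48.6 points and the highest value of its neighbours is 15.2. Actb was chosen for its gain, so its place above them says nothing further.

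The genes whose 4 percentiles were nearest to those of Actb were Plagl1, Il15, Chst5, Mest and Tub, at Euclidean distances from 6.77 to 17.7 points over the 4 libraries. Plagl1, a zinc finger gene that is imprinted, was at 4.28 and 6.18 in WT against 50.2 and 48.4 in K20R. Mest is imprinted as well. Tub was at 17.9 and 15.2 in WT against 49.2 and 52.5 in K20R. Il15 encodes a cytokine and was at 6.71 and 6.53 in WT against 45.2 and 41.4 in K20R. No other of the 9 reference genes was among these 5. The 5 were the nearest of all genes and Actb was chosen for its gain, so this absence says nothing further about the reference genes.

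Lists of genes with related roles were then counted on the same scale, with 23.8% of all genes higher in K20R, 23.0% lower and a median of 0.0861 points. Of 35 further genes used as references, 7 were higher, 7 lower and 21 overlapped, with a median of -1.44 points. By whole-list percentile, for which the shares over all genes are 15.9% and 31.8%, they were 6 and 11. Psmb4, a proteasome subunit, was at 15.9 and 14.4 in WT against 39.9 and 38.4 in K20R, and Rplp0, a ribosomal protein, at 27.7 and 35.8 against 45.1 and 44.7. Alas1, the first enzyme of haem synthesis, was at 41.5 and 44.1 in WT against 24.2 and 28.9 in K20R, and Rpl13a at 59.1 and 46.9 against 38.7 and 42.3.

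Of 29 genes of the actin cytoskeleton or SRF targets with promoter peaks, 6 were higher and 11 lower in K20R (5 and 13 by whole-list percentile), and the median was -2.93 points. Among the lower genes the differences were largest at Tagln2, an actin-binding protein of the transgelin family (83.1 and 70.5 in WT, 66.2 and 60.5 in K20R), and Myh9, non-muscle myosin heavy chain (97.2 and 95.3 in WT, 85.9 and 82.9 in K20R). Among the higher genes they were largest at Arpc3, a subunit of the actin-nucleating Arp2/3 complex (12.7 and 8.84 in WT, 38.4 and 15.7 in K20R), and Tmsb10, an actin-monomer binding thymosin (37.3 and 32.7 in WT, 57.9 and 41.0 in K20R). The K20R libraries differed from each other by more than 10 points at both of the latter.

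Of 7 genes named after translation elongation factors, other than Eef1a1, 4 were higher and 0 lower. Their median was 5.64 points, and the counts by whole-list percentile were 4 and 1. Eef1e1 was at 67.9 and 62.4 in WT against 75.7 and 75.7 in K20R, and Eef1g at 76.2 and 78.6 against 89.2 and 84.9. Of 18 TFIID and TBP-related genes, 4 were higher and 1 lower (median 0.475; by whole-list percentile 2 and 3). Taf2 was at 51.9 and 73.4 in WT against 82.2 and 84.5 in K20R, Taf11 at 51.1 and 36.3 against 53.8 and 55.2, and Taf12 at 36.0 and 35.7 against 33.2 and 23.0. These are subunits of TFIID, the complex to which Tbp belongs.

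Of 15 glycolytic genes, 2 were higher, 1 lower and 12 overlapped (median -0.490), against 1 higher and 4 lower by whole-list percentile. Aldoa, fructose-bisphosphate aldolase, was at 53.2 and 65.8 in WT against 81.4 and 82.1 in K20R, whereas Pkm, pyruvate kinase, was at 81.7 and 78.6 against 64.6 and 69.2. Tpi1, triosephosphate isomerase, differed by 2.33 points. Of 16 succinate dehydrogenase and citrate cycle genes, 3 were higher and 5 lower (median -2.05), and 3 and 6 by whole-list percentile. Idh3b was at 8.04 and 9.31 in WT against 29.0 and 31.1 in K20R, and Dlst at 47.6 and 35.7 against 55.1 and 54.9, while Idh3g was at 68.7 and 65.7 against 58.9 and 54.4 and Sucla2 at 73.5 and 65.5 against 57.1 and 58.4. Idh3b and Idh3g encode subunits of isocitrate dehydrogenase, whose other subunit gene Idh3a overlapped between genotypes (69.0 and 83.3 in WT, 68.7 and 79.8 in K20R), and Idh3a was named after its values were seen.

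Of 16 cyclophilin genes, 2 were higher, 1 lower and 13 overlapped (median 1.57). By whole-list percentile 0 were higher and 4 lower. The differences among promoter peaks were 5.54 points at Ppwd1, 4.51 at Ppig and -6.20 at Ppil1. Of 6 14-3-3 genes, 1 was higher and 1 lower (median -0.163; by whole-list percentile 0 and 3), namely Sfn at 1.23 and Ywhah at -7.06 points. Of 10 antigen presentation genes, the group of B2m, 2 were higher and 3 lower (median -4.14), and 2 and 4 by whole-list percentile. Nlrc5, an activator of MHC class I genes, was at 4.56 and 15.8 in WT against 40.4 and 27.4 in K20R, and Calr, the chaperone calreticulin, at 92.7 and 83.0 against 99.5 and 99.4. The MHC class I gene H2-D1 was at 60.7 and 42.5 in WT against 41.6 and 36.7 in K20R, and Irf1 at 68.2 and 58.0 against 51.2 and 51.3.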

How the data were processed

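ATAC-seq peak lists of 2 WT and 2 K20R libraries were used, grouped by the labels. According to the study's methods and the submitters' processing notes, the authors trimmed reads with Trim Galore, aligned them with Bowtie2 to mm10, removed reads of low mapping quality, duplicates and blacklisted reads, and called peaks with MACS2 in each library. The deposited score is 10 times the −log10 p. The deposited ratio is the fold of the summit pileup plus 1 over the local background plus 1, and the authors' −log10 p and −log10 q refer to that background. The lists hold 50.5% to 60.8% of their peak numbers, the rest having been removed by a rule that is not stated, and read totals were not used here.

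Pileup and background were solved from fold and p. Pileups came out whole within 0.05 in 100% of peaks, so depth was followed by them. Annotation was GENCODE vM21 basic, of the same build. The percentile of a peak is its rank by −log10 p in its list. Scripts (Python 3.11.15, numpy 2.4.6, scipy 1.17.1) were tested on simulated data. A gene was counted as higher or lower where both K20R values lay outside the WT values on the same side. The members and lists were chosen with earlier results of these data known. Named genes were the 9 members, the 5 genes nearest to Actb, the nearest 2 promoters on each side of it, and in each list the 2 largest non-overlapping differences of each sign. Nothing states that libraries of the same number come from 1 culture, and p-values would measure the spread between these libraries. Other ranks, windows, thresholds, peak choices, a replicate block and leaving out each library were tried, as was the rank among promoters by any base, chosen after seeing the data.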

Additional observations from a re-analysis of the deposited data

How the results depend on the processing

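The whole-list difference of Actb, 36.1 points, was 42.1 by fold enrichment, 48.6 among promoter peaks, 49.5 among promoter peaks with any base in the window, 51.5 with −log10 q kept at 5 or more and 45.9 with lists cut to 51823 peaks, and leaving out 1 library gave 29.1 to 43.1. With a window of 500 bp Actb had no value, since its intronic summits lie outside. The count of higher genes, 2 of 7, was 1 of 7 by fold enrichment and 3 of 7 with lists of equal length. It was 1 of 6 with a window of 500 bp, where Actb was missing, and 1 of 9 with 2 kb. With 1 library left out it was 3 to 4 of 7. It was 4 without WT replicate 1 and 4 without K20R replicate 1. Leaving out a library can only keep or raise the counts of higher and lower genes, since fewer values have to be in order. The share of all genes was not counted at these settings, so no change in the counts is read as a gain or a loss. The count of lower genes, 1 of 7, was 2 of 7 by fold enrichment and 2 of 9 with a window of 2 kb. It was 0 among promoter peaks (0 of 9 by any base), with −log10 q kept at 5 or more, with lists of equal length and by pileup. It was 1 to 2 with 1 library left out, the 2 coming without WT replicate 1 or K20R replicate 2. The median difference, 0.399 points, was 4.94 among promoter peaks and 3.71 with any base, and between -0.219 and 1.02 with 1 library left out. With a replicate block, which can also only keep or raise the counts, 3 genes were higher, 1 was lower and the median was 0.399. The labels do not say that equal numbers mark a shared culture. Tbp reversed to -0.917 with a window of 2 kb, where another peak was the strongest in some lists, and Gapdh to 0.810 with lists of equal length and to 0.09 on the log2 pileup scale, and the cause was not tested for Gapdh. Of 96 alternative values for the 6 genes other than Actb, these 3 among them, 14 had the opposite sign to the reported value, the other 11 being at genes whose genotypes overlapped. Depth was followed through pileups, and the Poisson interval of a single summit is wider than the difference at B2m.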
